A study of Mus musculus with 6 samples.

Results

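NRF2 is the transcription factor that animal cells use against oxidants and electrophiles. The 10 genes described here are Nfe2l2, which encodes NRF2, Keap1, which encodes its inhibitor, and 8 antioxidant genes that NRF2 is known to activate: Nqo1, Hmox1, Gclc, Gclm, Txnrd1, Srxn1, Gsta3 and G6pdx. They were chosen by name, with no measured value in the rule, but with earlier results of these data known. They were matched by symbol to the Ensembl identifiers of a count table of 55401 mouse genes. All 10 passed a filter of a mean of at least 10 counts over the libraries, which 15845 genes passed. Gsta3 did so only through its counts at day 7, since it had between 6 and 12 counts in the day 0 libraries, and its change over the days is therefore given as a description.

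The samples were C3H10T1/2 cells, a mouse mesenchymal stem cell line that can be driven toward bone or fat. RNA-seq libraries came from cells carrying a control hairpin RNA (shControl, labelled WT), a hairpin against Nfib (shNFIB, labelled NFIB knockdown) or a hairpin against Kmt2a, the MLL1 gene (shMLL1, labelled MLL1 knockdown). Each was sampled untreated at confluence (day 0) and after 7 days of osteogenic medium (day 7), which contained 0.1 µM dexamethasone, ascorbic acid 2-phosphate at 100 µg/ml and β-glycerophosphate at 20 mM. All 3 kinds of cells thus carried a hairpin, and all day 7 cells had received dexamethasone. Both knockdown lines had been established in earlier work, and the sources used here do not say whether a line is 1 clone.

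Each of the 6 conditions had a single library, so a difference between any 2 conditions has no replicate check. The total count per library was between 21608680, in shMLL1 at day 7, and 34774066, in shNFIB at day 0. Levels are given as counts per 1000000 counts of a library (CPM) after TMM scaling, which multiplies each library total by a factor, here between 0.908 and 1.13. Each target was lower in its own knockdown line, with Nfib at a log2 fold change from shControl of -1.72 at day 0 and -3.36 at day 7, and Kmt2a at -1.27 and -0.93. Of 11 mesenchymal markers 10 passed the filter, and Nt5e, at 1 to 6 counts, did not. Thy1, Cd44 and Vim fell from day 0 to day 7 (edgeR quasi-likelihood, adjusted p = 0.00982, 0.00426 and 0.0306), and Pdgfra rose (adjusted p = 0.0332). Of all genes 17.3% fell and 16.9% rose in that test. Thy1 was also higher in shNFIB over both days (log2 fold change 2.36, edgeR quasi-likelihood, adjusted p = 0.0377). The part of these markers in the results was not tested. Of 6 macrophage markers Ptprc, Adgre1 and Itgam did not exceed 3 counts in any library, and the list summed to between 11.3 and 23.5 CPM, with Cd14 at 258 to 703 counts, Csf1r at 3 to 26 and Lyz2 at 2 to 14. Of 4 endothelial markers Cdh5 and Kdr stayed at the floor, Pecam1 had 3 to 19 counts, and Tek had 66 to 795 counts. Of 4 epithelial markers Epcam and Krt19 stayed at the floor, Krt14 had 0 to 10 counts, and Cdh1 had 183 to 286 counts at day 0 and 6 to 34 at day 7. Tek and Cdh1 were lower at day 7 (edgeR quasi-likelihood, adjusted p = 0.037 and 0.00222), and their part in the results was not tested. The 7 markers of cycling cells summed to between 1676 and 2307 CPM at day 0 and to between 223 and 323 CPM at day 7, and their part in the results was not tested. In bulk RNA, fewer cells with a transcript and less of it per cell cannot be told apart.

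In resting cells KEAP1 binds NRF2 and hands it to a ubiquitin ligase for degradation. Oxidants and electrophiles modify KEAP1, so that NRF2 escapes, pairs with a small MAF protein and binds the antioxidant response element in the control regions of its target genes. The control is therefore largely on the NRF2 protein, which RNA-seq does not measure. The targets make and use glutathione, reduce thioredoxin and peroxiredoxin, supply NADPH, reduce quinones and break down heme.

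The core of the antioxidant response element is TGACNNNGC, which reads GCNNNGTCA when it lies on the other strand. Start-site windows from RefSeq (build GRCm38.p6, 250 bases before to 50 after a start) were held for 8 of the 10 genes, and 6 of the 8 had the core on either strand in at least 1 window. Of all 27025 genes with a window 14.0% had it, and of all 32851 windows 12.4%. The matches are shown because NRF2 is known to bind such letters, and whether it binds these stretches was not tested. The core is in capitals in each, read 5′ to 3′ along the gene's strand, and a match describes the letters and not a bound site. Positions of the core count from the start site. The Nfe2l2 stretch lies at chr2:75704869-75704913 on the minus strand, with the core from -240 to -232. That of Gsta3 lies at chr1:21240438-21240498 on the plus strand, with the core from -121 to -113, and that of Gclm at chr3:122245397-122245457 on the plus strand, with the core from -134 to -126. For Txnrd1 the match is in 1 of 3 windows, at chr10:82859088-82859148 on the plus strand, with the core from -92 to -84, inside the gene and outside its exons. For Srxn1 it is at chr2:152105542-152105570 on the plus strand, with the core from 28 to 36, in an exon. For G6pdx it is at chrX:74428919-74428947 on the minus strand, with the core from -57 to -49, in an exon of GENCODE M21.
Nfe2l2: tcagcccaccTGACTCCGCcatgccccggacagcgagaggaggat
Gsta3: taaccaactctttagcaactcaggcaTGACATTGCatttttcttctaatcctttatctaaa
Gclm: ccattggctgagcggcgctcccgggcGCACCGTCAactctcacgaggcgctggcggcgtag
Txnrd1: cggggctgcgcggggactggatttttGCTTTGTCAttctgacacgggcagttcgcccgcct
Srxn1: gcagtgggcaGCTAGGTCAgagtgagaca
G6pdx: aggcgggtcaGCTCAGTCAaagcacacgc
The windows of Nqo1 and Keap1 did not hold these letters. Hmox1 and Gclc had no window in the table.

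Each of the 8 target genes was highest in shNFIB cells at day 7, while Nfe2l2 and Keap1 were highest in shNFIB at day 0. The lowest library was shMLL1 at day 7 for 5 genes: Keap1, Gclm, Txnrd1, Srxn1 and G6pdx. The ratio of the highest to the lowest library was smallest for the regulators, at 2.32 for Nfe2l2 and 1.98 for Keap1. Among the targets it ran from 4.31 for Srxn1 to 17.6 for Gclc, and for Gsta3, which was near the detection floor at day 0, it was 91.5. At day 7 the shNFIB library exceeded the shMLL1 library for 10 of 10 genes, by a ratio between 1.63 for Keap1 and 8.64 for Hmox1. How often such orders of the libraries occur over all genes was not counted, so they describe the 10 genes alone.

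**Figure D1:**
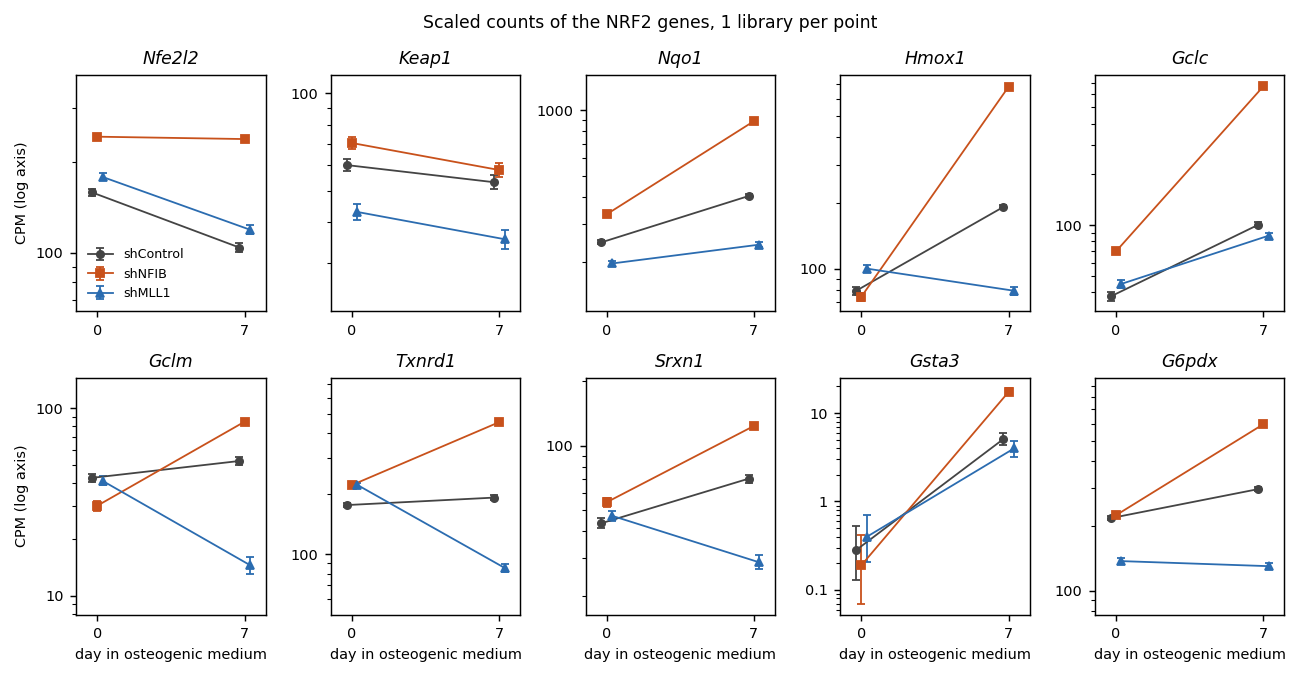
TMM-scaled CPM (log axis) of the 10 genes at day 0 and day 7 of osteogenic medium, with 1 library per point, lines joining the 2 libraries of shControl (circles), shNFIB (squares) and shMLL1 (triangles), and bars giving the exact 95% Poisson interval of the count. The shNFIB point at day 7 stands above the other 5 libraries for the 8 targets, with Hmox1 at 684 CPM and Gclc at 665 CPM, and the shMLL1 point at day 7 is the lowest for Keap1, Gclm, Txnrd1, Srxn1 and G6pdx.

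Nfe2l2 (ENSMUSG00000015839, GRCm38 chromosome 2 from 75675513 to 75704641, minus strand) encodes NRF2 itself. It was at 158 CPM in shControl, 242 CPM in shNFIB and 178 CPM in shMLL1 at day 0, and at 104 CPM, 237 CPM and 119 CPM in the same order at day 7. The 2 shNFIB libraries were the highest and had overlapping intervals, where an interval is the exact 95% interval of a count or of the ratio of 2 counts and covers counting error only. From day 0 to day 7 the log2 fold change was -0.60 (interval -0.67 to -0.54) in shControl, -0.58 (-0.64 to -0.51) in shMLL1 and -0.03 (-0.07 to 0.02) in shNFIB, where scaling to library size alone gave 0.07. Against shControl, shNFIB was at 0.61 at day 0 and at 1.19 (1.13 to 1.25) at day 7, and shMLL1 at 0.17 and 0.20. The RNA for NRF2 was therefore past a fold of 2 in 1 of these comparisons, shNFIB against shControl at day 7.

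Keap1 (ENSMUSG00000003308, chromosome 9 from 21229730 to 21239361, minus strand) encodes the protein that holds NRF2 down. It was at 60.1 CPM, 70.3 CPM and 43.1 CPM in shControl, shNFIB and shMLL1 at day 0, and at 53.2 CPM, 58.0 CPM and 35.5 CPM at day 7. Both shMLL1 libraries were below the other 4, and the 3 middle libraries, shControl at either day and shNFIB at day 7, overlapped with their neighbours in counting interval. The log2 fold change of shMLL1 against shControl was -0.48 (-0.58 to -0.38) at day 0 and -0.58 (-0.70 to -0.46) at day 7, both short of a fold of 2. An antisense gene, Gm16754, shares 510 bases of exon with Keap1, and as the strand setting of the counting is not given in the sources used here, reads of the pair cannot be told apart.

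Gclc (ENSMUSG00000032350, chromosome 9 from 77754535 to 77794485, plus strand) encodes the catalytic subunit of glutamate-cysteine ligase, the rate-limiting enzyme of glutathione synthesis. It was at 37.8 CPM in shControl, 69.9 CPM in shNFIB and 44.8 CPM in shMLL1 at day 0. At day 7 it was at 100.3 CPM, 665 CPM and 86.5 CPM in these lines. All 3 lines were higher at day 7, the log2 fold change being 1.41 (1.31 to 1.51) in shControl, 3.25 (3.19 to 3.31) in shNFIB and 0.95 (0.85 to 1.05) in shMLL1. The shNFIB library at day 7 was at 2.73 (2.67 to 2.78) against shControl of that day, the widest gap to shControl of the 10 genes at that day, while shMLL1 was at -0.21.

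Gclm (ENSMUSG00000028124, chromosome 3 from 122245557 to 122270732, plus strand) encodes the modifier subunit of the same ligase, which raises the activity of the catalytic subunit. Its levels were 42.5 CPM, 30.1 CPM and 40.9 CPM in shControl, shNFIB and shMLL1 at day 0, and 52.2 CPM, 84.6 CPM and 14.5 CPM at day 7. At day 0 shNFIB was the lowest of the lines, and at day 7 it was the highest. The log2 fold change from day 0 to day 7 was 0.30 (0.19 to 0.40) in shControl, 1.49 (1.38 to 1.60) in shNFIB and -1.49 (-1.67 to -1.32) in shMLL1. The subunits thus parted in shMLL1 at day 7, where Gclc was near shControl and Gclm was at -1.84 (-2.01 to -1.68) against it. Gclm shares exon bases with Gm17494 on the other strand and with the pseudogene Gm6061, so that some of its reads are uncertain.

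Gsta3 (ENSMUSG00000025934, chromosome 1 from 21240589 to 21265661, plus strand) encodes a glutathione S-transferase, an enzyme that joins glutathione to reactive molecules. Its counts were 9 in shControl, 6 in shNFIB and 12 in shMLL1 at day 0, and 155, 514 and 97 in the same order at day 7. The day 0 counts had overlapping intervals in the 3 lines, and every line was far above them at day 7. In CPM it went from 0.282 to 5.08 in shControl, from 0.190 to 17.4 in shNFIB and from 0.398 to 3.98 in shMLL1. The log2 fold change was 4.15 (3.21 to 5.33), 6.48 (5.38 to 7.97) and 3.31 (2.45 to 4.32). The gene belongs to a family of close copies, and reads they share may have been lost or split in the authors' counting.

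Txnrd1 (ENSMUSG00000020250, chromosome 10 from 82833951 to 82897712, plus strand) encodes cytosolic thioredoxin reductase, which passes electrons from NADPH to thioredoxin. It was at 176 CPM, 221 CPM and 221 CPM in shControl, shNFIB and shMLL1 at day 0, and at 191 CPM, 455 CPM and 85.4 CPM at day 7. The lines lay close together at day 0 and were spread widely at day 7. Against day 0, the log2 fold change was 0.12 (0.07 to 0.18) in shControl, 1.04 (1.00 to 1.08) in shNFIB and -1.37 (-1.44 to -1.30) in shMLL1.

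Srxn1 (ENSMUSG00000032802, chromosome 2 from 152105516 to 152111376, plus strand) encodes sulfiredoxin, which repairs overoxidized peroxiredoxins. It was at 43.6 CPM, 54.6 CPM and 47.3 CPM at day 0, and at 70.3 CPM, 124 CPM and 28.7 CPM at day 7, in shControl, shNFIB and shMLL1. As with Txnrd1, the shNFIB library was the highest and the shMLL1 library the lowest at day 7. Its log2 fold change over the 7 days was 0.69 (0.59 to 0.79) in shControl, 1.18 (1.10 to 1.26) in shNFIB and -0.72 (-0.85 to -0.59) in shMLL1.

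G6pdx (ENSMUSG00000031400, chromosome X from 74409483 to 74429194, minus strand) encodes glucose-6-phosphate dehydrogenase, the first step of the pentose phosphate pathway and a main source of NADPH. It was at 218 CPM, 225 CPM and 137 CPM in shControl, shNFIB and shMLL1 at day 0, and at 297 CPM, 596 CPM and 129.9 CPM at day 7. The shMLL1 libraries overlapped with each other and were both below the other 4. Relative to day 0 the log2 fold change was 0.45 (0.40 to 0.49) in shControl, 1.41 (1.37 to 1.45) in shNFIB and -0.08 (-0.15 to -0.01) in shMLL1, where scaling to library size alone turned it to 0.13. The exons of G6pdx overlap those of Ikbkg on the other strand by 418 bases, so the same doubt about strand holds.

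Nqo1 (ENSMUSG00000003849, chromosome 8 from 107388225 to 107403206, minus strand) encodes a quinone reductase and is the usual marker of NRF2 activity. It was at 246 CPM in shControl, 331 CPM in shNFIB and 196 CPM in shMLL1 at day 0, and at 402 CPM, 892 CPM and 239.8 CPM at day 7. Within each day the order was shNFIB, shControl, shMLL1, and the shMLL1 library at day 7 overlapped with shControl at day 0. The log2 fold change from day 0 to day 7 was 0.71 (0.67 to 0.75) in shControl, 1.43 (1.40 to 1.46) in shNFIB and 0.29 (0.24 to 0.34) in shMLL1. Per kilobase of exon, Nqo1 was the most abundant of the 10 genes, with a median over the 6 libraries of 186 CPM per kilobase, ahead of G6pdx at 71.8 and Hmox1 at 51.2, and with Keap1 at 11.8 CPM per kilobase, Gclm at 6.63 and Gsta3 at 0.503 at the lower end.

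Hmox1 (ENSMUSG00000005413, chromosome 8 from 75093621 to 75100589, plus strand) encodes heme oxygenase 1, which opens the heme ring. It was at 79.1 CPM, 74.3 CPM and 100.0 CPM in shControl, shNFIB and shMLL1 at day 0, and at 192 CPM, 684 CPM and 79.2 CPM at day 7. At day 0 the shNFIB library was the lowest, with an interval that overlapped that of shControl, and at day 7 it was the highest. The log2 fold change was 1.28 (1.21 to 1.35) in shControl, 3.20 (3.14 to 3.26) in shNFIB and -0.34 (-0.42 to -0.25) in shMLL1. Against shControl at day 7, shNFIB was at 1.83 (1.79 to 1.88) and shMLL1 at -1.28 (-1.35 to -1.20).

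The first question of the design was what 7 days of osteogenic medium changed. The only comparison with several libraries a side is day 7 against day 0 over the 3 lines, with the line as a term, tested with edgeR's quasi-likelihood method and Benjamini-Hochberg adjustment over 15845 genes. Its p-values rest on how far the 3 lines disagree in their day change. The lines differ in hairpin and stand in for replicate cultures, whose spread was not measured. Of the 9 genes other than Gsta3, Gclc rose and the other 8 did not pass an adjusted p of 0.05. Of all genes tested 16.9% were called higher and 17.3% lower, so 1 of 9 called higher and 0 of 9 called lower is no more than in the table as a whole. With libraries scaled to their size alone, the calls over all genes were 3123 higher and 2104 lower, in place of 2683 and 2739.

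Gclc rose by a log2 fold change of 1.85 (SE 0.45, adjusted p = 0.0221, edgeR quasi-likelihood), and was higher in 3 of 3 lines. Without shControl its log2 fold change was 2.06 with an adjusted p of 0.0556, and without the line term 2.48 with an adjusted p of 0.0546, larger in size and short of the threshold. Gsta3 was estimated at 4.60, which the filter partly fixed and which is no test. Nqo1 was higher in 3 of 3 lines too, at 0.81 (SE 0.28, adjusted p = 0.0607, edgeR quasi-likelihood), which missed the threshold and passed it with DESeq2 (adjusted p = 0.0151).

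Hmox1 was at 1.37 over the lines with an SE of 0.64, and did not pass in edgeR's quasi-likelihood test (adjusted p = 0.136). The test counts a disagreement between lines as error, and Hmox1 was higher at day 7 in 2 lines and lower in shMLL1. The same split was seen for Gclm at 0.12 (SE 0.53), Txnrd1 at -0.06 (SE 0.44), Srxn1 at 0.40 (SE 0.36) and G6pdx at 0.59 (SE 0.31). Without shMLL1, Nqo1 (adjusted p = 0.0291), Hmox1 (adjusted p = 0.00896) and Srxn1 (adjusted p = 0.0209) passed beside Gclc in the edgeR fit, which called 30.7% of all genes. DESeq2 on all 6 libraries called Nqo1 and Hmox1 beside Gclc, and it called 40.3% of all genes. The regulators were negative in all 3 lines, Nfe2l2 at -0.40 (SE 0.21, adjusted p = 0.173) and Keap1 at -0.24 (SE 0.17, adjusted p = 0.292, edgeR quasi-likelihood).

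Taken line by line, the libraries were compared by whether a gene lay past a fold of 2, with no test. In shControl 3 of 10 genes were past it and higher at day 7 (Hmox1, Gclc and Gsta3) and 0 were lower, where 20.2% of all genes were higher and 14.8% lower. The median log2 fold change was 0.57 over the 10 genes and -0.04 over all genes tested. The shNFIB line had 8 of 10 higher, that is, the 8 targets, and 0 lower, against 15.5% and 13.2% of all genes, with a median of 1.42 beside -0.03. Without Gsta3 the counts were 2 of 9 in shControl and 7 of 9 in shNFIB, with medians of 0.45 and 1.41. In shMLL1 only Gsta3 was higher, and Gclm and Txnrd1 were lower, against 23.5% and 18.8% of all genes, with a median of -0.31 beside 0.02. With library size alone 4 of the 10 genes were past the fold in shMLL1 in place of 3, and 6753 of all genes in place of 6707. As a signed log2 value, the day change was higher in shNFIB than in shControl for 9 of 10 genes, Keap1 being the exception. It was lower in shMLL1 than in shControl for 9 of 10, Nfe2l2 being the exception by a difference of 0.03. The size of a change could go the other way. Gclm was at -1.49 in shMLL1 and 0.30 in shControl, and Nfe2l2 at -0.03 in shNFIB and -0.60 in shControl. These differences between lines were not tested, their share over all genes was not counted, and both sets share the shControl libraries.

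**Figure D2:**
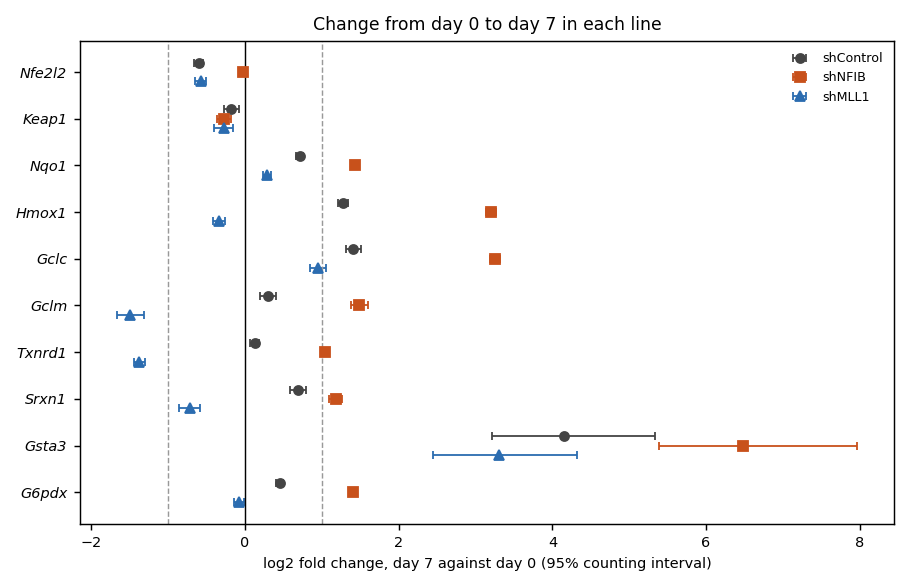
Log2 fold change of each gene from day 0 to day 7 in shControl (circles), shNFIB (squares) and shMLL1 (triangles), 1 library a side, with bars for the exact 95% interval of the 2 counts and dashed lines at a fold of 2. In shNFIB the targets lie between 1.04 for Txnrd1 and 6.48 for Gsta3, while in shMLL1 Gclm at -1.49 and Txnrd1 at -1.37 lie past the line on the other side.

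The second question was what each knockdown changed at each day. At day 0 none of the 10 genes was past a fold of 2 against shControl in shNFIB, where 13.0% of all genes were past it in either direction, or in shMLL1, where 18.6% were. The median over the 10 genes at day 0 was 0.28 in shNFIB and 0.14 in shMLL1. The log2 fold changes there ran in shNFIB from -0.56 (-2.34 to 1.09) for the scarce Gsta3 to 0.89 (0.79 to 0.99) for Gclc. In shMLL1 they ran from -0.67 (-0.72 to -0.61) for G6pdx to 0.49 (-0.87 to 1.92) for Gsta3.

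At day 7 the median of the 10 genes lay further from shControl than at day 0 in both lines, above it in shNFIB and below it in shMLL1. Single genes differed from this, with Keap1 in shNFIB going from 0.23 to 0.12, and in shMLL1 Gclc going from 0.25 to -0.21. Both comparisons share the shControl library at day 7. In shNFIB 10 of 10 genes were higher than in shControl and 7 were past a fold of 2: Nfe2l2, Nqo1, Hmox1, Gclc, Txnrd1, Gsta3 and G6pdx. Of all genes 7.53% were past it and higher, and 10.9% were past it and lower. The median was 1.17 over the 10 genes and 0.01 over all genes. G6pdx was at the limit with 1.01 (0.97 to 1.04), and Srxn1 at 0.81 (0.74 to 0.89), Gclm at 0.70 (0.60 to 0.79) and Keap1 at 0.12 (0.03 to 0.22) were short of it. With the size factors of DESeq2 or with library size alone G6pdx fell short as well, leaving 6 genes.

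In shMLL1 at day 7, 9 of 10 genes were lower than in shControl and 5 were past a fold of 2: Hmox1, Gclm, Txnrd1, Srxn1 and G6pdx. Of all genes 5.89% were past it and lower, and 6.72% past it and higher. The median was -0.95 over the 10 genes beside -0.04 over all genes. Gclm was the furthest at -1.84, followed by Srxn1 at -1.29 (-1.42 to -1.17), Hmox1 at -1.28, G6pdx at -1.19 (-1.25 to -1.13) and Txnrd1 at -1.16 (-1.24 to -1.09). Nqo1 was at -0.75 (-0.79 to -0.70) and Gsta3 at -0.35 (-0.74 to 0.02), and Nfe2l2 was the gene that was higher, at 0.20 (0.12 to 0.27). This library had the lowest total count of the 6.

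**Figure D3:**
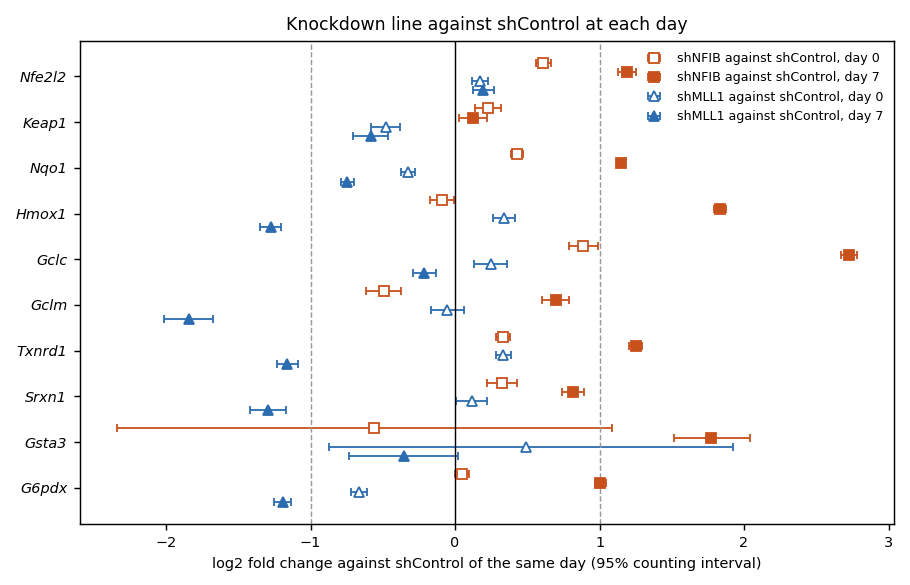
Log2 fold change of each gene in shNFIB (squares) and shMLL1 (triangles) against shControl of the same day, at day 0 (open) and day 7 (filled), 1 library a side, with bars for the exact 95% interval of the 2 counts and dashed lines at a fold of 2. Filled squares lie to the right, up to 2.73 for Gclc, and filled triangles to the left, down to -1.84 for Gclm, except the one for Nfe2l2 at 0.20, whereas open symbols stay within the dashed lines.

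Tested over both days in the same edgeR quasi-likelihood fit, 0 of the 10 genes passed an adjusted p of 0.05 for either knockdown, and 0.259% of all genes were called for shNFIB and 0.0316% for shMLL1. For shNFIB 3 of the 10 genes had an unadjusted p under 0.05 (Nfe2l2, Nqo1 and Gclc), where 12.8% of all genes did, and DESeq2 called 1, Gclc, and 3.91% of all genes. The shNFIB estimates were positive for 10 of 10 genes, among them Gclc at 1.96 (SE 0.54, adjusted p = 0.222), Hmox1 at 1.15 (SE 0.73, adjusted p = 0.551) and Nfe2l2 at 0.91 (SE 0.26, adjusted p = 0.231, edgeR quasi-likelihood). Over all genes tested the median of this estimate was 0.05. For shMLL1 1 gene, Keap1, had an unadjusted p under 0.05, at -0.53 (SE 0.21, adjusted p = 0.483, edgeR quasi-likelihood), where 9.58% of all genes had one, and DESeq2 called 0 of the 10 genes and 2.65% of all genes. A knockdown effect that was present at day 7 and not at day 0 counts as error in this fit, and with 1 library a group the interaction could not be tested. The days of a line stood as its libraries here, with 1 line per hairpin. A knockdown effect and another difference between lines therefore cannot be told apart.

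The wider pathway was read from 77 other genes in lists of regulators, glutathione, thioredoxin and peroxiredoxin, NADPH supply, detoxification, and heme and iron genes, of which 74 were tested. In the day effect 12 of the 74 rose and 11 fell in edgeR's quasi-likelihood test, with a median of 0.01, which is near the 16.9% and 17.3% of all genes, and for the knockdowns 0 of 74 were called. The shNFIB library at day 7 had 8 of the 74 past a fold of 2 and higher than shControl and 5 lower, against 7.53% and 10.9% of all genes, with a median of 0.27. The shMLL1 library had 1 higher and 15 lower, against 6.72% and 5.89% of all genes, with a median of -0.34. Of the 15, the genes Maff, Sod1 and Ftl1, described below, lay at the limit. Scaling to library size alone moved the median of all genes in this comparison up by 0.11 (log2), more than these genes lay past it. The list was not counted again under that scaling. Both comparisons share the shControl library at day 7.

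Among the 10 other regulators, Mafg, a small MAF partner of NRF2, rose over the days at 1.22 (SE 0.23, adjusted p = 0.00969), and Gsk3b, a kinase that promotes NRF2 degradation, fell by 0.88 on the log2 scale (SE 0.22, adjusted p = 0.023, edgeR quasi-likelihood). At day 7 shNFIB had 3 of the 10 past a fold of 2 and higher than shControl. They were Cul3, the scaffold of the ligase that KEAP1 works with, at 1.35 (1.29 to 1.42), and, chosen after their values were seen, Bach1, a repressor that competes at the response element, at 1.22 (1.14 to 1.30), and Sqstm1, an autophagy receptor that binds KEAP1, at 1.15 (1.13 to 1.18). The shMLL1 library had 0 higher and 1 lower, Maff at -1.01 (-1.26 to -0.76), also chosen after its value was seen.

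The glutathione list had 25 of 28 genes tested. Over the days 5 rose and 1 fell. The transferases Mgst2 at 3.30 (SE 0.59, adjusted p = 0.00827), Mgst1 at 2.57 (SE 0.35, adjusted p = 0.00342) and Gstm1 at 1.75 (SE 0.23, adjusted p = 0.00294, edgeR quasi-likelihood) rose most, Gsta4 and the glutaredoxin gene Glrx also rose, and the peroxidase gene Gpx1 fell. At day 7 in shNFIB the 2 of 25 past a fold of 2 and higher than shControl were, chosen after their values were seen, Slc7a11, the cystine transporter that feeds glutathione synthesis, at 2.46 (2.30 to 2.63), and Gsr, which reduces oxidized glutathione, at 1.42 (1.32 to 1.52). The 5 lower there, of which all but Mgst2 were likewise chosen after their values were seen, were Gpx4, a peroxidase of lipid peroxides, at -2.05 (-2.08 to -2.03), Mgst2 at -1.33 (-1.68 to -0.98), Gstm5 at -1.10 (-1.23 to -0.97), and the scarce Ggt1 and Gpx3, with 2 and 10 counts against 34 and 22. Ggt1 and Gpx3 passed the filter with mean counts of 14.7 and 10.7, in part through the shControl library at day 7. Their place among the 5 is therefore given as a description. Already at day 0, 4 of the 25 were past a fold of 2 and lower in shNFIB and 0 higher. Of all 15845 genes tested, 971 were past it and lower then and 1082 past it and higher, 13.0% in either direction. Gpx4 was at 138 CPM in shNFIB and 557 CPM in shControl at day 0, Gstm5 at 18.7 CPM and 36.7 CPM, and Mgst2 at 0.158 CPM and 0.563 CPM. In shMLL1 at day 7, 0 were higher than in shControl and 7 lower, with Gsr at -1.37 (-1.54 to -1.20) and Gpx4 at -1.52 (-1.54 to -1.50) among them. Slc7a11 was itself uneven at the start, at 39.5 CPM in shControl, 49.8 CPM in shNFIB and 94.5 CPM in shMLL1 at day 0, and at 11.7 CPM, 64.3 CPM and 9.30 CPM at day 7. Gsta1 and Gsta2, close relatives of Gsta3, had 2 counts each in shMLL1 at day 7 against 43 and 20 counts in shControl, log2 fold changes of -4.04 (-7.20 to -2.16) and -2.94 (-6.14 to -0.96).

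Of 11 thioredoxin and peroxiredoxin genes, 2 rose over the days and 2 fell. Prdx6, a peroxiredoxin that uses glutathione, rose by 2.33 (SE 0.29, adjusted p = 0.00267), Txnip, an inhibitor of thioredoxin, rose by 1.07 (SE 0.20, adjusted p = 0.00965), and Txnrd3 and Prdx4 fell (edgeR quasi-likelihood, adjusted p = 0.0414 for Txnrd3). At day 7 none of the 11 was past a fold of 2 in either knockdown against shControl. Txnrd1 and Srxn1, of the same pathway, were both past it and lower in shMLL1, and Txnrd1 was past it and higher in shNFIB. Txn1, thioredoxin itself, was at -1.54 (-1.58 to -1.50) from day 0 to day 7 in shMLL1.

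Of 8 other NADPH genes, Tkt, a transketolase of the pentose phosphate pathway, fell by 1.20 on the log2 scale (SE 0.22, adjusted p = 0.00931), and Me1, the cytosolic malic enzyme, fell by 0.93 (SE 0.29, adjusted p = 0.045, edgeR quasi-likelihood). The list median against shControl at day 7 was 0.65 in shNFIB, with none past a fold of 2, and -0.39 in shMLL1, with 3 lower. Among the 13 detoxification genes 3 rose and 4 fell over the days. Aox1, an aldehyde oxidase, rose by 3.41 (SE 0.30, adjusted p = 0.00095), Aldh3a1, an aldehyde dehydrogenase, by 1.90 (SE 0.28, adjusted p = 0.00465), and Cat, catalase, also rose, while Ptgr1, a prostaglandin reductase, fell by 1.27 (SE 0.20, adjusted p = 0.00539, edgeR quasi-likelihood), with Akr1b8, Ugdh and Sod3. At day 7 the 2 of 13 past a fold of 2 in shNFIB were Aldh3a1 at 2.32 (2.24 to 2.39) and, chosen after its value was seen, the epoxide hydrolase gene Ephx1 at 1.24 (1.20 to 1.27), with none lower. Already at day 0, 2 of the 13 were past a fold of 2 and higher in shNFIB and 0 lower. Of all 15845 genes tested, 1082 were past it and higher then and 971 past it and lower, 13.0% in either direction. Aldh3a1 was at 41.6 CPM in shNFIB and 16.3 CPM in shControl at day 0. In shMLL1 at day 7 none was higher and 2 were lower, Cbr3, a carbonyl reductase, at 27.5 CPM against 60.2 CPM in shControl, and Sod1, a superoxide dismutase, at 94.0 CPM against 188 CPM, both chosen after their values were seen.

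In the heme and iron list, Fth1, the ferritin heavy chain, rose by 1.25 (SE 0.33, adjusted p = 0.0278), and Blvra, a biliverdin reductase that works after heme oxygenase, fell by 0.70 on the log2 scale (SE 0.21, adjusted p = 0.0422, edgeR quasi-likelihood). At day 0 Slc40a1, the iron exporter, had a level of 0.814 CPM in shControl cells and of 46.3 CPM in shMLL1 cells (log2 fold change 5.82, interval 5.27 to 6.45). At day 7 this gene was past a fold of 2 in both knockdowns and higher, at 3.59 (2.84 to 4.47) in shNFIB and 3.37 (2.60 to 4.26) in shMLL1. The shControl level of that day was 0.492 CPM. None of the list was lower in shNFIB, and 2 were lower in shMLL1, the biliverdin reductase gene Blvrb at -1.37 (-1.50 to -1.25) and, chosen after its value was seen, the ferritin light chain gene Ftl1 at -1.02 (-1.04 to -1.01).

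**Figure D4:**
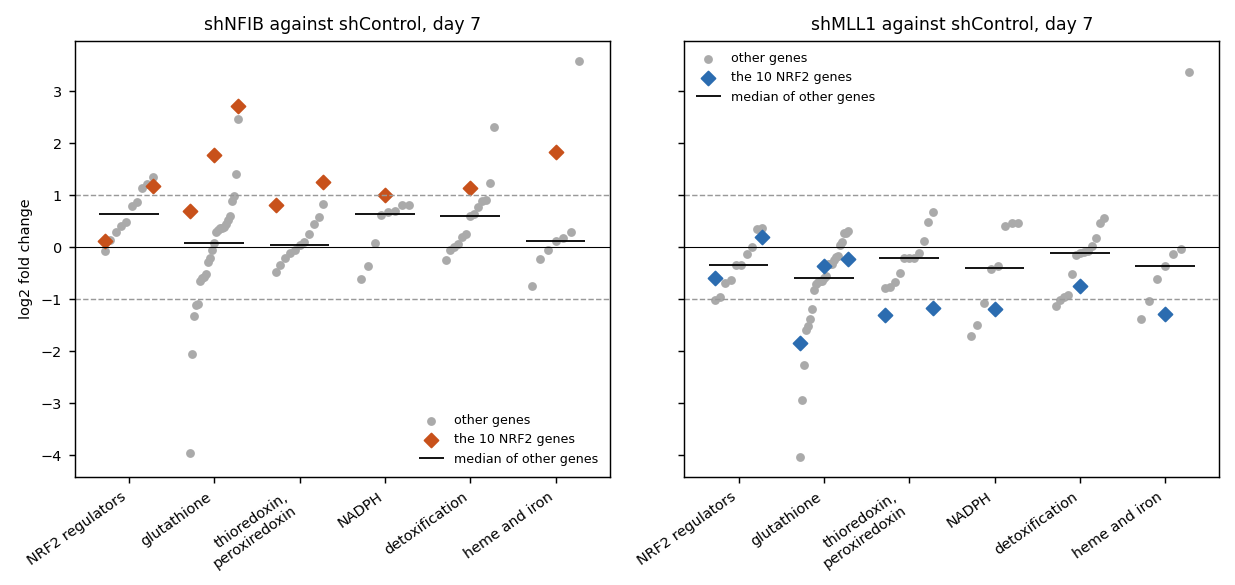
Log2 fold change against shControl at day 7 in shNFIB (left) and shMLL1 (right) of the tested genes of the 6 pathway lists, with grey points for the 74 other genes, diamonds for the 10 genes, black bars for the median of the other genes and dashed lines at a fold of 2, with 1 library a side. In shNFIB 8 grey points lie above the upper dashed line and 5 below the lower one, and in shMLL1 1 lies above and 15 below.

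For Nqo1, the genes with the highest Pearson correlation of log2 CPM over the 6 libraries were Arhgap6, Surf1 and Itm2c, with 0.999, 0.998 and 0.994. For Gsta3, which had the widest range of the 10 genes, they were Mt2, Nyx and Map3k8, with 0.995, 0.995 and 0.994. Such a correlation compares neither the level nor the size of a change. Arhgap6 was at 12.5 CPM in shMLL1 at day 0 and at 20.0 CPM in shNFIB at day 7, where Nqo1 was at 196 CPM and 892 CPM. Mt2, a metallothionein, was at 53.7 CPM, 56.1 CPM and 65.5 CPM in shControl, shNFIB and shMLL1 at day 0 and at 213 CPM, 384 CPM and 166 CPM at day 7. Of the 15845 genes tested, 31 correlated with Nqo1 above 0.95 and 112 with Gsta3, and the 6 points of each correlation share the line and the day.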

How the data were processed

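RNA-seq counts of 6 libraries were used, 1 for each of shControl, shNFIB and shMLL1 at day 0 and day 7. Per the methods and the submitters' processing notes, the authors used Trimmomatic 0.39 for trimming, HISAT2 2.2.1 for alignment to GRCm38 (mm10), SAMtools 1.12 for a filter on mapping quality and the removal of PCR duplicates, and HTSeq 0.11.1 for counting per Ensembl gene. The deposited table holds these raw counts. The annotation release and strand setting are not given in the sources used here. Symbols matched 55141 of 55401 identifiers.

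Genes with a mean of at least 10 counts were kept. The day effect (line as a term) and the line effects were fitted to all 6 libraries with edgeR 4.0.16 (quasi-likelihood test, TMM, R 4.3.3) and called at a Benjamini-Hochberg adjusted p under 0.05. The fit had 2 residual degrees of freedom and a biological coefficient of variation (BCV) of 0.279. Both days of a line were sampled from the same hairpin cells, which pairs them. Across genes, their departures from the mean of each day correlated at 0.441 in shControl, 0.440 in shNFIB and 0.276 in shMLL1. Pairs of libraries were compared by log2 fold change (prior count 0.125) and called past a fold of 2, the limit named in the methods, with exact 95% Clopper-Pearson intervals of the ratio and Poisson intervals of counts. Reads are not independent molecules, so these intervals cover counting error alone. The steps were tested on simulated data.

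Alternatives were DESeq2 1.42.0, other scalings and filters, each line left out, no line term, only the 4 libraries compared, and edgeR's exact test at an assumed BCV of 0.2 or 0.4. Positions came from GENCODE M21 and start-site windows from RefSeq GRCm38.p6. Python 3.11.15, scipy 1.17.1 and matplotlib 3.10.9 made the tables and figures. The 10 genes and the pathway lists were chosen with earlier results of these data known. Other genes were named where the day effect called them, for the largest called change or fold in a list, or for the closest correlation with Nqo1 or with the member of widest range. ChIP-seq data were not used here.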

Additional observations from a re-analysis of the deposited data

Results flagged for a closer look

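In 5 of the 10 genes the shMLL1 line moved from day 0 to day 7 in the direction opposite to both shControl and shNFIB. The log2 fold change in shMLL1 was -0.34 for Hmox1, -1.49 for Gclm, -1.37 for Txnrd1, -0.72 for Srxn1 and -0.078 for G6pdx, whereas it was positive in the other lines, between 0.12 for Txnrd1 and 1.28 for Hmox1 in shControl and between 1.04 for Txnrd1 and 3.20 for Hmox1 in shNFIB. The difference between lines was not tested, since each line has 1 library a day. The flag asked only that the counting intervals of the day changes lie off 0 on opposite sides. How many of all genes meet it was not counted, so 5 of 10 is a description. For G6pdx the shMLL1 libraries overlapped in counting interval, and its direction in shMLL1 turned to 0.13 under scaling to library size alone. The other 4 genes were negative in shMLL1 under each scaling and prior count tried. The shMLL1 library at day 7 had the lowest total count of the 6, and its part in the result was not tested.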

How the results depend on the processing

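With each line left out in turn, the day effect called between 2185 and 4868 genes (5422 with all libraries) and between 1 and 5 of the 10 genes (2 with all), each count with Gsta3, which passes the filter only through day 7. Without the filter it called 4 of the 10 genes and 6270 of 29043 genes with a count, or 21.6%. With all settings as reported it called 5422 of 15845, or 34.2%, so the 2 shares are of different sets. Of the 15845 genes it called 40.3% with DESeq2, with 4 of the 10 genes. With no line term as the block (no replicate block), which left out the pairing of the days, it called 23.7% and 1 of the 10 genes. The day effect of Txnrd1 turned from -0.06 to 0.075 with library size alone, to 0.24 without the line term and to 0.55 without shMLL1, with a range of -0.62 to 0.55 over the lines left out. That of Gclm turned from 0.12 to -0.04 without shControl and to -0.59 without shNFIB (range -0.59 to 0.86), and that of Srxn1 from 0.40 to -0.012 without shNFIB (range -0.012 to 0.90). The shNFIB effect called 41 genes, 688 without the filter, 619 with DESeq2 and 604 from the 4 libraries compared, and of the 10 genes 0, 1 without the filter and 1 with DESeq2. Its split was 13 higher and 28 lower, and 13 and 47 with library size alone. The shMLL1 effect called 5 genes (526 without the filter, 420 with DESeq2, 205 from the 4 libraries), and its value for Gsta3 turned from 0.045 to -0.032 in the 4 libraries.

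Without the filter, the genes past a fold of 2 from day 0 to day 7 were 12666 in shControl, 11066 in shNFIB and 14789 in shMLL1 (5540, 4547 and 6707 with it), and against shControl 7831 and 9364 in shNFIB and 9650 and 9062 in shMLL1 at day 0 and day 7 (2053, 2922, 2945 and 1998 with it). With the exact test at a BCV of 0.4 the same comparisons gave 636, 769 and 1368, and 140, 197, 137 and 103 genes. At 0.2 the comparisons with shControl gave 702 and 1363 in shNFIB and 1292 and 762 in shMLL1. Of the 10 genes, a BCV of 0.4 left 1 of 3 over the days in shControl, 3 of 8 in shNFIB and 1 of 3 in shMLL1, and at day 7 it left 0 of 7 in shNFIB and 0 of 5 in shMLL1, of which 0.2 left 3. Apart from the added error each test assumes, the cause was not tested. Of 210 values of single genes in pairs of libraries under other scalings and another prior count, 155 stayed within the counting interval and 55 did not. Library size alone moved the median of all genes by up to 0.21 (log2), in shMLL1 over the days. With 1 library a group, no difference between 2 conditions can be set against the spread between cultures, and at 6 to 12 counts the day 0 levels of Gsta3 could not be ordered.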
